A study of Mus musculus with 32 samples.

Results

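Regeneration-associated genes are genes that injured neurons switch on when they regrow an axon. The 10 described here are Atf3, Jun, Sox11, Klf6 and Klf7, which encode transcription factors; Sprr1a, Hspb1 and Gadd45a, which encode stress and repair proteins; and Gap43 and Basp1, which encode growth-cone proteins. They were chosen by symbol, as 10 of the 23420 gene rows of a bulk RNA-seq count table, and all 10 had enough reads to be among the 16314 genes tested. The RNA came from the spinal cord of C57BL/6J mice aged 8 to 12 weeks, from a segment reaching about 2 to 3 mm to each side of the lesion. Sham cords (sham) were taken at 3 and 35 days, with 3 libraries each. Injured cords given a control treatment (SCI+Ctrl) and injured cords given Gsx1 (SCI+Gsx1) were taken at 3, 14 and 35 days, with 3, 3 and 4 libraries each. Injured cords given Nkx6.1 (SCI+Nkx6.1) were taken at 3 and 35 days, with 3 libraries each. Gsx1 and Nkx6.1 are homeodomain transcription factors of the developing spinal cord. The labels give neither what the control treatment held nor how the factors were delivered, and no sham cord is labelled as having the control treatment, so injury and that treatment cannot be told apart in any comparison with sham. They do not say that the libraries of a group came from separate animals, so the p-values measure the spread between these libraries, which may be technical in part.

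After a peripheral nerve is cut, sensory and motor neurons turn on Atf3, Jun and Sox11, and with them effector genes such as Sprr1a, Gap43 and Hspb1, and their axons regrow. Neurons of the adult brain and spinal cord turn this set on weakly or not at all after injury, and forced expression of several of its members has been used to promote axon growth. Most of the transcription factors and stress proteins are not specific to neurons: Atf3, Jun, Klf6 and Gadd45a also respond to stress in glia, immune cells and vessels, and Sprr1a was first known from the epidermis.

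The 32 libraries held 10823632 to 19512107 counts each, and levels are given as CPM, a gene's counts scaled per library to a common total with trimmed-mean (TMM) factors. Oligodendrocyte and pan-neuronal markers were abundant in every library, with summed levels of 18700 to 39200 CPM for 6 oligodendrocyte genes and 3640 to 15300 CPM for 11 pan-neuronal genes. The delivered factors were not visible as raised transcripts: Gsx1 had 0 to 10 counts in any library, and Nkx6-1 stood at 3.62 to 6.11 CPM in the SCI+Nkx6.1 libraries at 3 days against 7.0 to 8.98 CPM in SCI+Ctrl. Xist, which is expressed from the inactive X chromosome, exceeded 100 CPM in 7 libraries spread over 5 groups, and 2 of the 7 (sham 3 days replicate 1 and SCI+Ctrl 35 days replicate 4) also held the Y-linked Ddx3y above 10 CPM. The 7 at 3 days were sham replicates 1 and 2 and SCI+Ctrl replicate 1. Those at 35 days were sham replicate 3, SCI+Ctrl replicates 1 and 4 and SCI+Nkx6.1 replicate 2. None was an SCI+Gsx1 library, so Xist was not balanced between groups. Several results changed when only the 25 libraries of low Xist (under 100 CPM) were used, and those values stand beside them. That setting kept replicate 3 as the only 3-day sham library and fewer SCI+Ctrl libraries, so Xist and the loss of libraries cannot be told apart.

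The promoters of Atf3, Sprr1a and Hspb1 are shown because these were the 3 genes whose levels differed most between groups. Each sequence is the 250 bases before the transcription start in RefSeq, read 5′ to 3′ along the gene's own strand on GRCm38.p6. Capitals mark motifs found by letters alone, and GC boxes are not marked.
Atf3 (chr1:191183334-191183583, minus strand): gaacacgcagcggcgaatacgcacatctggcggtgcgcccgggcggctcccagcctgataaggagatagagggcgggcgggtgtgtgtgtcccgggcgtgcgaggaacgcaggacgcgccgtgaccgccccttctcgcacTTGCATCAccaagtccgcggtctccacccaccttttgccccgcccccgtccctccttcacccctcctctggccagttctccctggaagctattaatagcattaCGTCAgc
Sprr1a (chr3:92485882-92486131, minus strand): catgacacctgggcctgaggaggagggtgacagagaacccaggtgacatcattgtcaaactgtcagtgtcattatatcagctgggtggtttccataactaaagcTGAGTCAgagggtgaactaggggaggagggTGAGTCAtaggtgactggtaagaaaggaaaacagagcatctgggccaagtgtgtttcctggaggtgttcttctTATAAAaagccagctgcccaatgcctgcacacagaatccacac
Hspb1 (chr5:135887669-135887918, plus strand): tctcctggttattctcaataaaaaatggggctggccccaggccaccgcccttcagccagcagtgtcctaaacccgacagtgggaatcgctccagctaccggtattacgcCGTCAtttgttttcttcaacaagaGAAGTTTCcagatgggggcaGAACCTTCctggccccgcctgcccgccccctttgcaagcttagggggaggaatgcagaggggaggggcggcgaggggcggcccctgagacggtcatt

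In Atf3 the capitals are an ATF4-CEBP motif (TGATGCAA) and a cyclic AMP response element core (TGACG), both on the opposite strand, which begin 110 and 7 bases before the start. In Sprr1a they are 2 AP-1 motifs (TGANTCA), the letters bound by Jun and its partners, at 146 and 116 bases before the start, and a TATA box (TATAAA) at 43. In Hspb1 they are 2 heat shock elements (GAANNTTC), at 117 and 97 bases, and a TGACG core on the opposite strand at 141. Motifs were searched on both strands from 250 bases before to 50 after the start, in which 9 of the 10 genes had an entry among 32851 windows. TGANTCA was in 7.81% of all windows and in 1 of the 9 (Sprr1a). TGATGCAA was in 0.895% of all windows and in 1 of the 9 (Atf3). GAANNTTC was in 7.86% and in 2 of the 9 (Jun and Hspb1). TGACG, which is contained in the full element TGACGTCA, was in 20.8% and in 3 of the 9 (Atf3, Hspb1 and Basp1), while TGACGTCA was in 1.79% and in 0 of the 9. TATAAA was in 13.6% and in 1 of the 9, and the GC box GGGCGG was in 35.7% and in 8 of the 9. TGATGAAA, a second form of the ATF4-CEBP motif, was in 1.02% and in 0 of the 9. A match describes the letters and shows no binding.

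At 3 days, 6 of the 10 genes were higher in SCI+Ctrl than in sham cords and none was lower: Atf3, Jun, Klf6, Sprr1a, Hspb1 and Gadd45a. The same count, of the same 6 genes, was reached at 35 days. Sox11, Gap43, Klf7 and Basp1 passed the test at neither time. The test was edgeR's quasi-likelihood F test over all 10 groups, with Benjamini-Hochberg adjusted p under 0.05 over all genes tested as the call, and 35.5% of all genes were called at 3 days and 36.8% at 35 days. The median log2 fold change of the 10 genes was 0.68 at both times, against 0.01 at 3 days and 0.04 at 35 days over all genes tested. In 7 genes at 3 days, and 6 at 35 days, no SCI+Ctrl library overlapped a sham library. The share of all genes without overlap was not computed, so these counts are a description and not a result about the 10 genes.

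**Figure D1:**
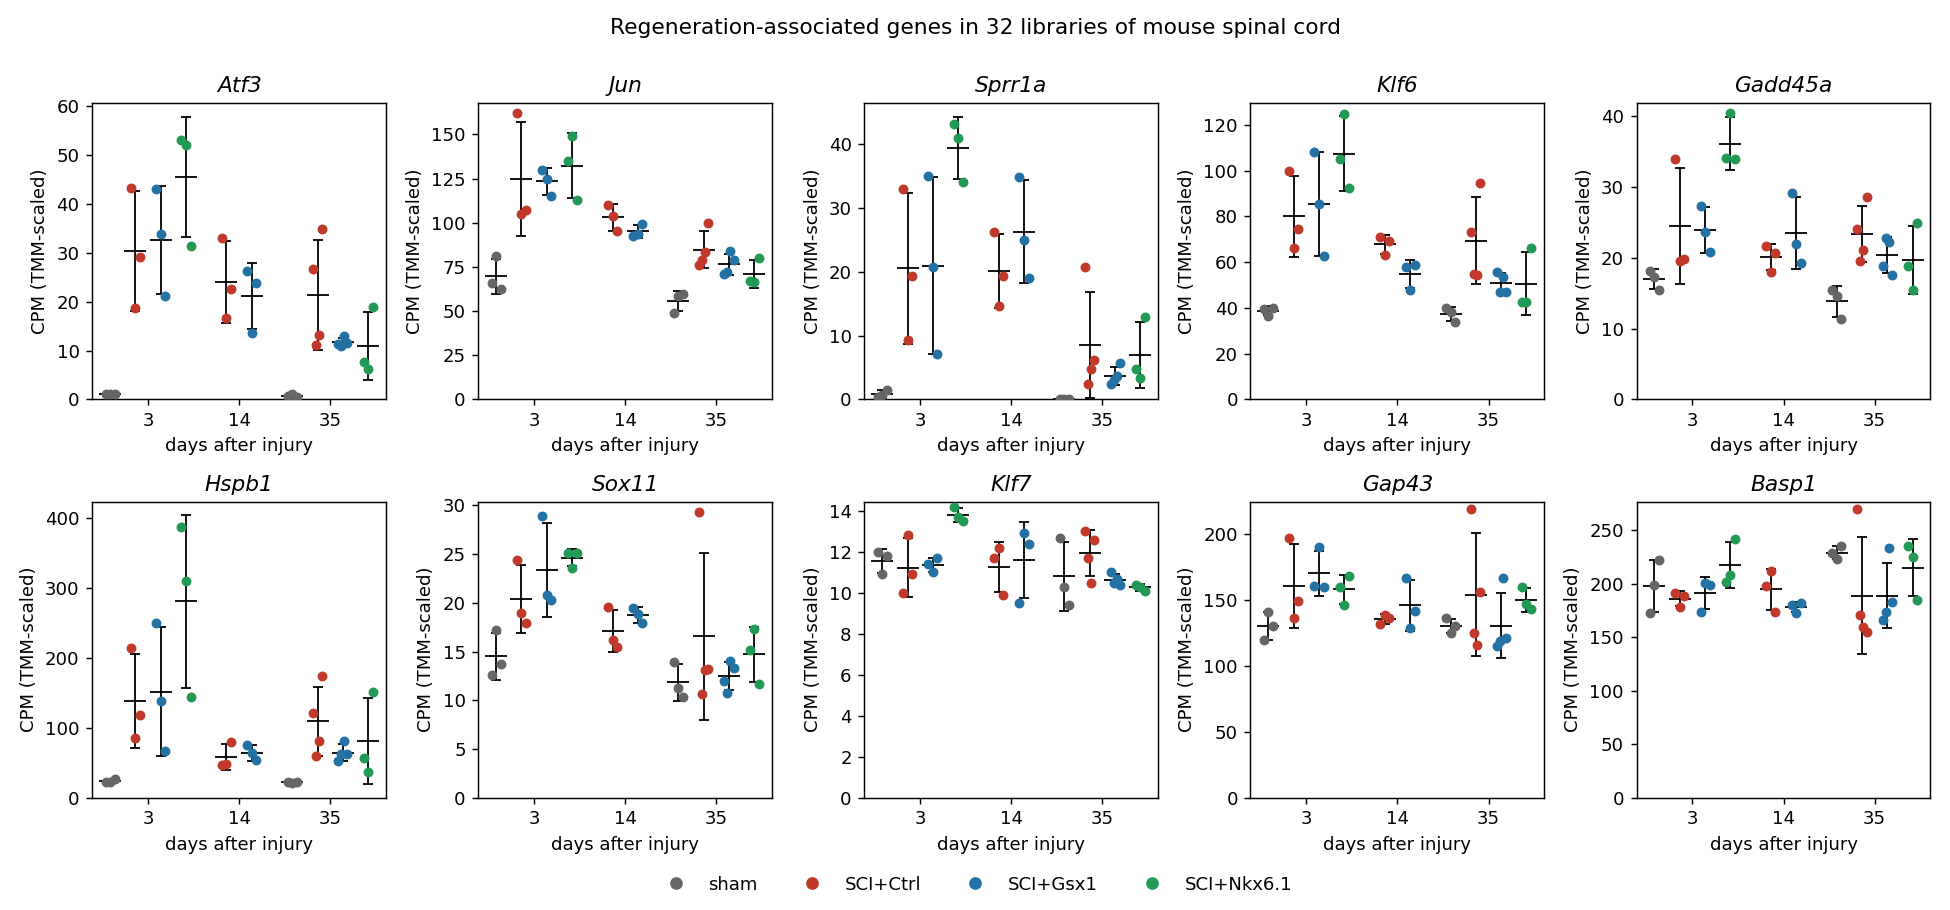
Level of each of the 10 genes in every library (points, CPM, axis from 0) by group and day, with the group mean and SD in black and 1 panel per gene. Atf3, Sprr1a and Hspb1 are low in both sham groups and higher in every injured library, while Gap43, Klf7 and Basp1 vary little over the 10 groups.

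Atf3 encodes a stress-induced transcription factor of the ATF/CREB family and is widely used to mark injured neurons. It stood at 1.14, 1.03 and 1.09 CPM in the 3 sham libraries at 3 days and at 43.2, 18.8 and 29.2 CPM in SCI+Ctrl. At 14 days the SCI+Ctrl libraries held 33.1, 16.6 and 22.5 CPM. At 35 days Atf3 stood at 0.626, 1.02 and 0.492 CPM in sham and at 26.6, 11.2, 13.1 and 34.8 CPM in SCI+Ctrl. The lowest injured library at either time was far above the highest sham library. The log2 fold change was 4.79 ± 0.52 (SE) at 3 days (27.7-fold; edgeR adjusted p = 3.67e-07) and 4.90 ± 0.54 at 35 days (29.8-fold; adjusted p = 3.23e-07). Within SCI+Ctrl the libraries also differed among themselves, with a mean of 30.4 ± 12.2 CPM (SD, n = 3) at 3 days and 21.4 ± 11.3 CPM (SD, n = 4) at 35 days. With only the libraries of low Xist, the change at 35 days was smaller but still called (3.90; adjusted p = 0.000236).

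Jun encodes the AP-1 subunit c-Jun, which is needed for efficient axon regrowth in peripheral nerve. It was already abundant in sham cords, at 65.8, 80.9 and 62.4 CPM at 3 days, and stood at 162, 105 and 107 CPM in SCI+Ctrl. At 35 days it was 49.0, 58.6 and 59.5 CPM in sham and 76.3, 79.1, 83.5 and 99.6 CPM in SCI+Ctrl. The groups did not overlap at either time. The rise was modest beside that of Atf3, at 0.84 ± 0.14 on the log2 scale at 3 days (edgeR adjusted p = 8.7e-05) and 0.60 ± 0.14 at 35 days (adjusted p = 0.00151).

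Klf6 and Klf7 encode Krüppel-like zinc-finger factors that promote axon growth in fish and mammals. Klf6 stood at 39.7, 36.4 and 39.9 CPM in sham and at 100, 66.0 and 74.3 CPM in SCI+Ctrl at 3 days. At 35 days it was 39.9, 38.3 and 34.0 CPM in sham and 73.0, 54.9, 54.6 and 94.7 CPM in SCI+Ctrl, again without overlap. The log2 fold change of Klf6 was 1.05 ± 0.20 at 3 days (edgeR adjusted p = 0.000355) and 0.89 ± 0.19 at 35 days (adjusted p = 0.00119). With only libraries of low Xist the 35-day change of Klf6 no longer passed the test (0.50; adjusted p = 0.164). Klf7 stood at 10.9 to 12.0 CPM in sham and 10.0 to 12.8 CPM in SCI+Ctrl at 3 days, with the groups intermixed. Its log2 fold change was -0.05 (95% interval -0.32 to 0.23) at 3 days and 0.14 (-0.11 to 0.40) at 35 days, so a change in Klf7 of the size seen in Klf6 lay outside both intervals.

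Sox11, a factor of immature and regrowing neurons, was at 12.6, 17.2 and 13.7 CPM in sham and 24.4, 18.9 and 17.9 CPM in SCI+Ctrl at 3 days. The 2 groups did not overlap, but the log2 fold change of 0.49 ± 0.25 did not pass the test (edgeR adjusted p = 0.125). It did pass when only the compared groups were fitted (0.51; adjusted p = 0.0392) or with a term for sex (0.59; adjusted p = 0.0474). At 35 days Sox11 was at 13.9, 11.3 and 10.3 CPM in sham and at 29.3, 10.6, 13.1 and 13.2 CPM in SCI+Ctrl. Replicate 1 of SCI+Ctrl was far above the rest, and without it the 35-day log2 fold change of 0.48 ± 0.24 (adjusted p = 0.114) became 0.05. Without replicate 2 of the same group it passed the test (0.64; adjusted p = 0.0276).

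Sprr1a encodes a small proline-rich protein that is almost absent from intact neurons and promotes neurite outgrowth. It stood at 0.426, 0.635 and 1.5 CPM in sham and at 32.9, 9.30 and 19.4 CPM in SCI+Ctrl at 3 days. The 14-day SCI+Ctrl libraries held 26.2, 14.7 and 19.4 CPM. At 35 days sham libraries were at 0, 0.0848 and 0 CPM and SCI+Ctrl libraries at 20.7, 2.43, 4.72 and 6.1 CPM. Every injured library was above every sham library. The log2 fold change at 3 days was 4.55 ± 0.75 (23.5-fold; edgeR adjusted p = 5.79e-05), and it was 5.26 without sham replicate 3 and 3.26 with only libraries of low Xist. Since the 35-day sham libraries together held 1 count, their change is given as a ratio of depth-scaled summed counts: 442 counts in SCI+Ctrl against 1, a ratio of 299 with a 95% counting interval of 53.3 to 11800. The ratio was 160 (28.4 to 6350) without SCI+Ctrl replicate 1, which held the highest 35-day level by far, and 86.6 (15.2 to 3450) with only libraries of low Xist, settings chosen after seeing the data. These intervals cover counting error and not the spread between libraries. Sprr1a passed the 35-day test with and without that replicate (edgeR adjusted p = 4.44e-05 and 0.000117).

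Hspb1 encodes the small heat shock protein HSP27 (Hsp25 in the mouse), an actin-associated chaperone that supports the survival of injured neurons. It stood at 23.2, 22.1 and 26.8 CPM in sham and at 214, 85.0 and 118 CPM in SCI+Ctrl at 3 days. At 14 days the SCI+Ctrl libraries were lower, at 46.9, 48.1 and 79.6 CPM. At 35 days sham libraries were at 23.1, 21.7 and 23.0 CPM and SCI+Ctrl libraries at 121, 60.4, 81.7 and 174 CPM. The sham libraries lay close together and the injured ones were widely spread, with no overlap between them at either time. The log2 fold change was 2.53 ± 0.48 at 3 days (5.78-fold; edgeR adjusted p = 0.000306) and 2.27 ± 0.47 at 35 days (4.83-fold; adjusted p = 0.000646). With only libraries of low Xist it was smaller at 3 days, at 1.94. Sham kept only replicate 3 there, so no call is given and the 3-day call is not said to hold. At 35 days the change missed the threshold in that setting (1.68, edgeR adjusted p = 0.0539). With the levels of H2-Bl and Rpl29 in the model it was 1.63 at 35 days and still called (adjusted p = 0.00988).

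Gadd45a encodes a DNA-damage-induced protein that takes part in repair and DNA demethylation. It was at 18.2, 17.3 and 15.4 CPM in sham and 33.9, 19.5 and 19.9 CPM in SCI+Ctrl at 3 days. At 35 days it was at 15.5, 14.6 and 11.4 CPM in sham and 24.0, 19.6, 21.1 and 28.6 CPM in SCI+Ctrl. The 35-day groups stood clearly apart, whereas at 3 days 2 of the 3 injured libraries were only just above sham. The log2 fold change was 0.53 ± 0.20 at 3 days (edgeR adjusted p = 0.0447) and 0.75 ± 0.19 at 35 days (adjusted p = 0.00452). The 3-day call ended without SCI+Ctrl replicate 1 (0.23; adjusted p = 0.409), and also without sham replicate 1, 2 or 3 (adjusted p = 0.0631, 0.0712 and 0.14). It also ended with only the compared groups in the fit (adjusted p = 0.0719). With only libraries of low Xist the change was 0.38 at 3 days, where sham kept only replicate 3, and 0.45 at 35 days (edgeR adjusted p = 0.165).

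Gap43 and Basp1 encode membrane-bound growth-cone proteins that bind calmodulin and shape the actin cytoskeleton. Gap43 stood at 120, 141 and 130 CPM in sham and at 197, 136 and 149 CPM in SCI+Ctrl at 3 days, and at 35 days at 136, 125 and 130 CPM in sham and 219, 125, 116 and 156 CPM in SCI+Ctrl. Basp1 stood at 173, 199 and 222 CPM in sham and 191, 178 and 189 CPM in SCI+Ctrl at 3 days, and at 229, 223 and 235 CPM against 270, 171, 160 and 155 CPM at 35 days. Injured and sham libraries of both genes overlapped at each time. The log2 fold change of Gap43 was 0.30 (95% interval -0.05 to 0.66) at 3 days and 0.24 (-0.10 to 0.57) at 35 days, and that of Basp1 was -0.09 (-0.41 to 0.23) and -0.28 (-0.58 to 0.02). In 35-day SCI+Ctrl, 1 library decided the call of Basp1: replicate 1 had the highest level, and without it Basp1 was lower in SCI+Ctrl and passed the test (-0.50; edgeR adjusted p = 0.00317).

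**Figure D2:**
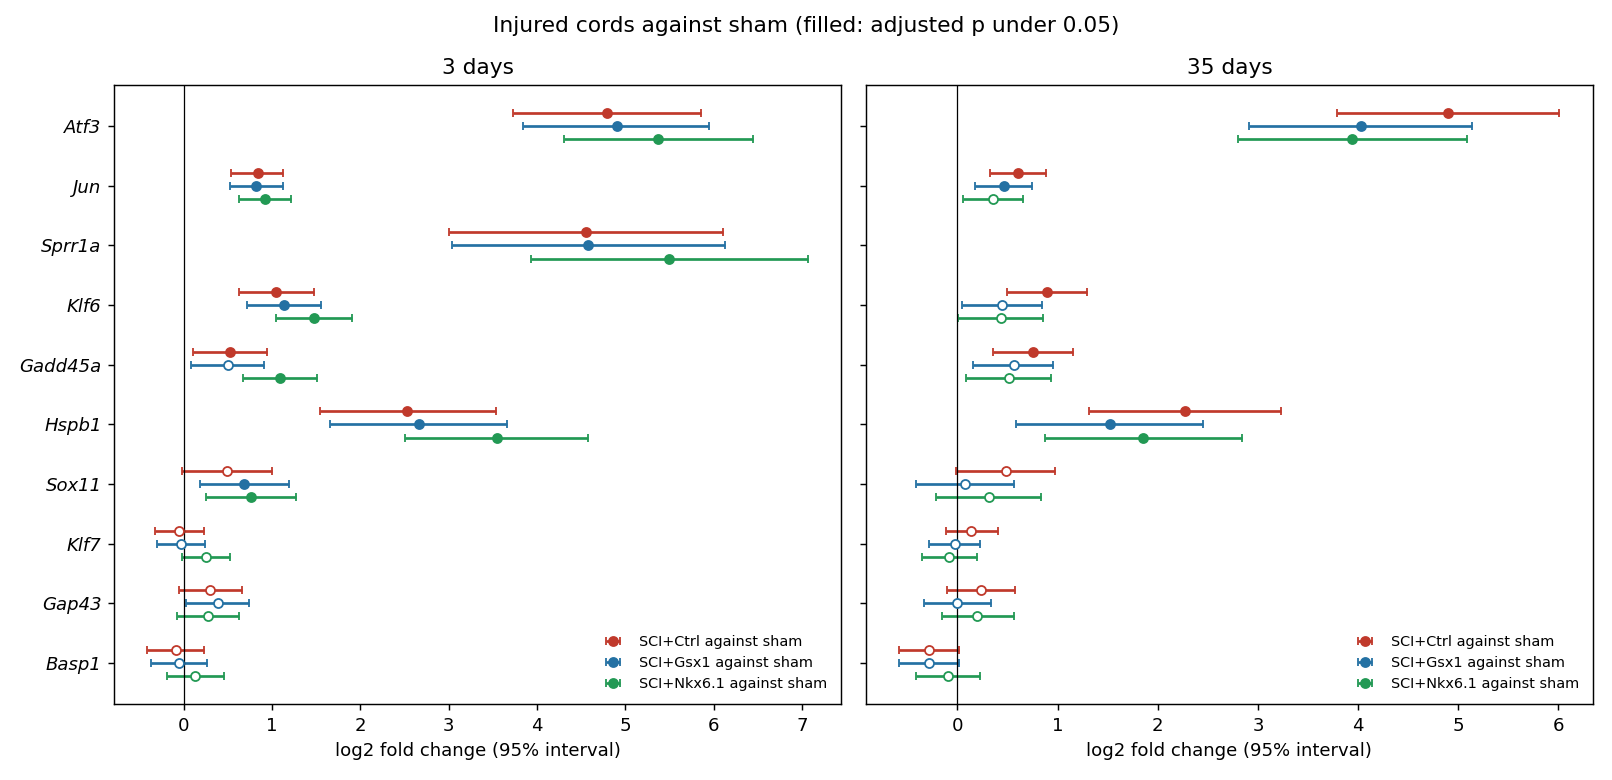
Log2 fold change of SCI+Ctrl, SCI+Gsx1 and SCI+Nkx6.1 over sham for each of the 10 genes at 3 and 35 days, with 95% intervals. Filled points passed the test, and Sprr1a is not drawn at 35 days because sham held 1 count. For SCI+Ctrl, Atf3 lies above 4 at both times, Hspb1 between 2 and 3, and the intervals of Gap43, Klf7, Sox11 and Basp1 include 0.

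Markers of other cells moved with these results. The summed level of 9 macrophage and microglia genes was 258 to 311 CPM in sham and 4090 to 6950 CPM in SCI+Ctrl at 3 days, and 241 to 276 against 1800 to 3880 CPM at 35 days. The astrocyte sum had a mean of 2920 CPM in sham and 10400 CPM in SCI+Ctrl at 3 days, and 2460 against 9530 CPM at 35 days. Fibroblast genes went from a mean of 261 to 1190 CPM and from 95.7 to 999 CPM, and Schwann cell genes from 553 to 817 and from 165 to 591 CPM. The endothelial sum was 269 to 295 CPM in sham and 447 to 549 CPM in SCI+Ctrl at 3 days, and 158 to 181 against 259 to 383 CPM at 35 days. Skeletal muscle genes varied between libraries, from 2.68 to 315 CPM within 3-day SCI+Ctrl. The part of these cells in the rises of Atf3, Jun, Klf6, Sprr1a, Hspb1 and Gadd45a was not tested. In these bulk samples a change in the number of cells of a type and a change in RNA per cell cannot be told apart. The sum of 7 sensory ganglion markers stayed at group means of 3.79 to 5.45 CPM, with Mrgprd at 0 in all 32 libraries. Its members did not all stay level. Named after their values were seen, Avil was at 0.405 CPM in sham and 1.15 CPM in SCI+Ctrl at 3 days, and P2rx3 at 3.91 and 2.0 CPM. For Sprr1a, an epidermal gene, the keratinocyte marker sum had group means of 31.4 to 43.4 CPM. Krt5 was at 0 in 21 libraries and Krt15 at 0 in 26. In 14-day SCI+Ctrl, which had the highest mean, Krt5 stood at 3.89 CPM and Krt15 at 2.74 CPM. Replicate 1 of that group had a keratinocyte sum of 64.2 CPM, against 36.4 and 29.7 CPM, and the most Sprr1a of its group (26.2 CPM). The part of keratinocytes in the Sprr1a levels was not tested.

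Neuronal transcripts moved the other way. The pan-neuronal sum had a mean of 13600 CPM in sham and 7000 CPM in SCI+Ctrl at 3 days, with 9 of its 11 genes called lower, and 15000 against 9060 CPM at 35 days, with 8 of 11 called lower. None of Gap43, Basp1 and Sox11 was called lower beside it. Per 1000 CPM of the pan-neuronal sum, Gap43 was at 9.62 ± 1.00 CPM in sham and 23.5 ± 6.62 CPM in SCI+Ctrl (SD, n = 3) at 3 days. At 35 days the values for Gap43 were 8.65 ± 0.479 (SD, n = 3) and 18.8 ± 9.28 (SD, n = 4). Basp1 was at 14.6 ± 1.56 and 27.1 ± 4.86 CPM per 1000 (SD, n = 3) at 3 days. At 35 days Basp1 was at 15.2 ± 0.564 (SD, n = 3) and 22.2 ± 7.93 (SD, n = 4), with overlap. Against the macrophage and microglia sum, which was higher after injury, Gap43 went the other way, from 464 to 31.7 CPM per 1000 at 3 days. These ratios are a description: the cells that carry the transcripts in injured cord were not identified, and the sum that divides them had itself changed.

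**Figure D3:**
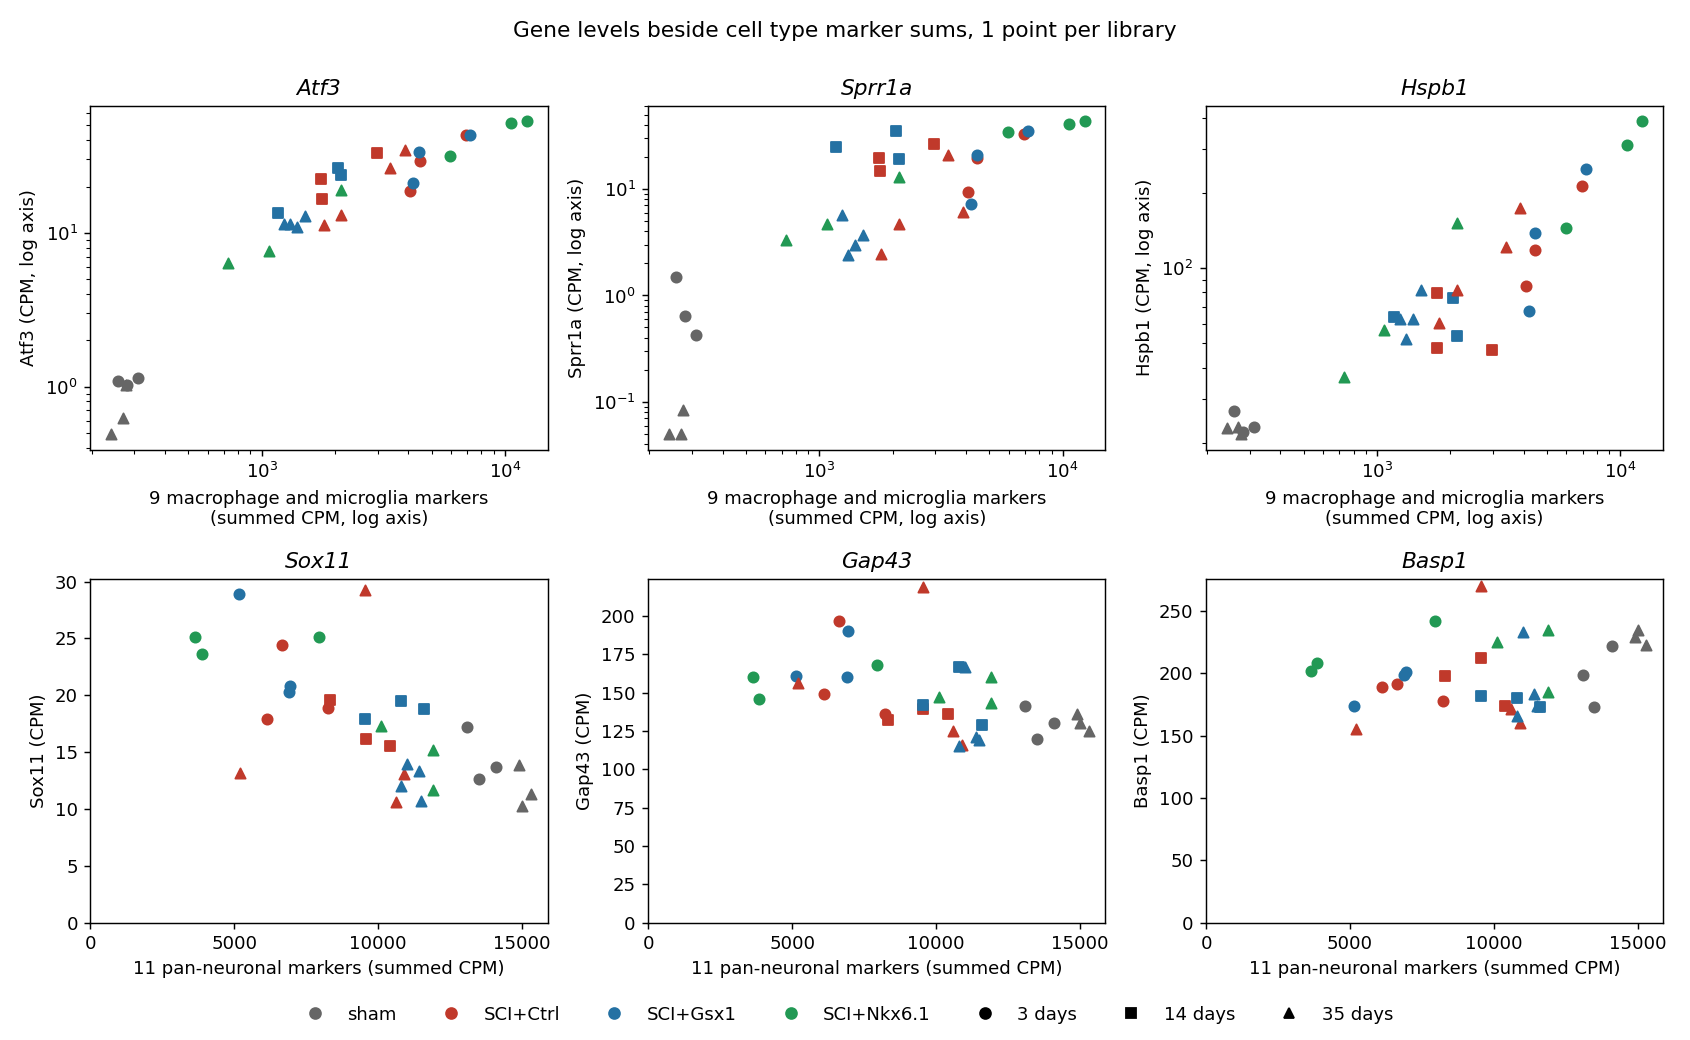
Each point is 1 of the 32 libraries. Atf3, Sprr1a and Hspb1 (CPM) are drawn against the summed macrophage and microglia markers (CPM) on log axes, with 0 drawn at 0.05 CPM. Sox11, Gap43 and Basp1 (CPM) are drawn against the summed pan-neuronal markers (CPM) on linear axes from 0. Sham libraries lie at or below 311 CPM of macrophage and microglia markers with Atf3 at 1.14 CPM or lower, and all injured libraries lie above both.

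Group means of Sprr1a ran from 0.0283 CPM in 35-day sham, where 1 count was found, to 39.4 CPM in 3-day SCI+Nkx6.1. On the log2(CPM + 0.5) scale the range over the 10 group means was 5.23 for Atf3 and 3.49 for Hspb1. Klf6 (1.5), Gadd45a (1.36), Jun (1.23) and Sox11 (1.03) were intermediate, and Klf7 (0.412), Gap43 (0.399) and Basp1 (0.361) were narrow. Levels of different genes were set side by side per length, with all annotated exons of a gene merged as its length. That length can exceed the length of a single transcript. On that scale, CPM per kilobase, the growth-cone genes led in 3-day sham cord, with Basp1 at 98.7 and Gap43 at 85.5, followed by Hspb1 at 23.3, Jun at 21.9, Gadd45a at 9.61 and Klf6 at 8.80. Sox11 (1.75), Klf7 (1.43), Sprr1a (1.06) and Atf3 (0.505) were at the bottom. In 3-day SCI+Ctrl cord Hspb1 had the highest mean, at 135 ± 65.3 CPM per kilobase (SD, n = 3), with Gap43 at 106 and Basp1 at 92.6. That order did not hold in replicate 2, where Hspb1 was at 82.4, Gap43 at 89.3 and Basp1 at 88.6. Sprr1a at 25.5 and Atf3 at 14.1 stood above Sox11 (2.45) and Klf7 (1.38), while Sprr1a and Klf6 (18.3) were not ordered the same way in every library.

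The injury effect did not differ measurably between the 2 times in any of the 10 genes. The difference between the 35-day and the 3-day effects was tested as an interaction in edgeR. It was called in 0 of 10 genes (0 by DESeq2), with 0.362% of all genes called. Of all genes, 9.58% had an unadjusted p under 0.05, and 0 of the 10 did. The smallest unadjusted p of the 10 genes was 0.123. Between the sham groups of the 2 times, 0 of 10 genes were called by edgeR (0 by DESeq2), and 0.00613% of all genes were called. Of all genes, 7.18% had an unadjusted p under 0.05, and 2 of the 10 did. Jun was one of these, 0.32 ± 0.14 lower on the log2 scale at 35 days (edgeR adjusted p = 0.683). Sprr1a was the other, with 36 summed counts at 3 days against 1 at 35 days, a depth-scaled ratio of 32 with a 95% counting interval of 5.39 to 1300.

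Within SCI+Ctrl, Hspb1 and Sprr1a showed the largest moves over time, and none passed the test. Between 3 and 14 days 0 of 10 genes were called by edgeR (0 by DESeq2), with 3.06% of all genes called. Of all genes, 20.0% had an unadjusted p under 0.05, and 1 of the 10 did. That gene was Hspb1, whose mean was 139 ± 67.3 CPM (SD, n = 3) at 3 days and 58.2 ± 18.5 CPM (SD, n = 3) at 14 days, with no overlap. Its log2 difference was -1.25 ± 0.46 (edgeR adjusted p = 0.13). Between 14 and 35 days 0 of 10 genes were called (0 by DESeq2), with 1.32% of all genes called. Of all genes, 23.5% had an unadjusted p under 0.05, and 3 of the 10 did. Those were Sprr1a at -1.25 ± 0.55 (edgeR adjusted p = 0.172), Hspb1 at 0.91 ± 0.44 (adjusted p = 0.207) and Jun at -0.29 ± 0.13 (adjusted p = 0.192). The fall of Sprr1a was larger without 35-day replicate 1, its highest library at that time (-2.21, and -2.5 at low Xist), and was still not called. The Hspb1 value was 0.28 with only libraries of low Xist or with H2-Bl and Rpl29 in the model. Atf3 was still at 24.1 ± 8.37 CPM (SD, n = 3) at 14 days, in the middle of its 3-day and 35-day means, and the macrophage and microglia sum went from a mean of 5170 to 2160 to 2800 CPM over the 3 times.

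Injured cords given Gsx1 or Nkx6.1 were also compared with sham. These comparisons use the same sham libraries as SCI+Ctrl, so they are not separate evidence of an injury response. At 3 days 6 of 10 genes were higher in SCI+Gsx1 than in sham (37.7% of all genes called), and 7 of 10 in SCI+Nkx6.1 (54.3% of all genes called). Those called in both were Atf3, Jun, Sox11, Sprr1a, Klf6 and Hspb1, and Gadd45a was also called in SCI+Nkx6.1. In SCI+Gsx1 Gadd45a narrowly missed the threshold (0.50; edgeR adjusted p = 0.0549), with no overlap with sham, and it passed under 6 of the alternatives, DESeq2 among them (adjusted p = 0.0414). At 35 days 4 of 10 were higher in SCI+Gsx1 (9.8% of all genes called) and 3 of 10 in SCI+Nkx6.1 (7.2% of all genes called). Atf3, Sprr1a and Hspb1 were called in both at 35 days, and Jun in SCI+Gsx1.

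Atf3 stood at 43.0, 33.8 and 21.1 CPM in SCI+Gsx1 and at 53.1, 52.1 and 31.4 CPM in SCI+Nkx6.1 at 3 days, all above sham. Its log2 fold change over sham was 4.90 ± 0.52 with Gsx1 (edgeR adjusted p = 1.67e-07) and 5.37 ± 0.52 with Nkx6.1 (adjusted p = 1.48e-08). At 35 days Atf3 stood at 11.4, 10.9, 12.9 and 11.5 CPM in SCI+Gsx1 and at 7.57, 6.32 and 19.0 CPM in SCI+Nkx6.1. The 35-day fold changes over sham were 4.03 ± 0.54 (adjusted p = 1.73e-05) and 3.94 ± 0.56 (adjusted p = 4.55e-05), and the latter was 3.28 without SCI+Nkx6.1 replicate 3. The SCI+Gsx1 libraries at 35 days lay close together for this gene, with a mean of 11.7 ± 0.865 CPM (SD, n = 4).

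Sprr1a stood at 35.0, 20.7 and 7.17 CPM in SCI+Gsx1 and at 43.2, 41.0 and 34.0 CPM in SCI+Nkx6.1 at 3 days. The log2 fold changes of Sprr1a over sham were 4.58 ± 0.75 (edgeR adjusted p = 4.4e-05) and 5.49 ± 0.76 (adjusted p = 2.06e-06). Both were larger without sham replicate 3, at 5.29 and 6.2, and smaller with only libraries of low Xist, at 3.82 and 4.73, and the Gsx1 value was 3.99 without SCI+Gsx1 replicate 1. At 35 days Sprr1a was at 2.39, 2.98, 3.70 and 5.70 CPM in SCI+Gsx1 and 4.71, 3.33 and 12.9 CPM in SCI+Nkx6.1. Every one of these libraries was above every sham library. The summed counts were 244 and 316 against 1 in sham, which gives depth-scaled ratios of 138 (95% counting interval 24.5 to 5460) and 268 (47.8 to 10600).

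Hspb1 stood at 250, 138 and 67.5 CPM in SCI+Gsx1 and at 387, 311 and 145 CPM in SCI+Nkx6.1 at 3 days. Its log2 fold changes over sham were 2.66 ± 0.49 (edgeR adjusted p = 0.00015) and 3.55 ± 0.50 (adjusted p = 2.69e-06). At 35 days Hspb1 was at 52.1, 62.5, 81.7 and 62.7 CPM in SCI+Gsx1 and at 56.7, 36.8 and 151 CPM in SCI+Nkx6.1, still above every sham library. The 35-day changes were 1.52 ± 0.45 (adjusted p = 0.0321) and 1.85 ± 0.48 (adjusted p = 0.0156). Both calls depended on single libraries. Without SCI+Nkx6.1 replicate 3 the second was 1.05 (adjusted p = 0.284), and it was also lost without sham replicate 2 or 3 (adjusted p = 0.0651 and 0.0542). The first was lost without sham replicate 1, 2 or 3 (adjusted p = 0.0898, 0.111 and 0.095) and without SCI+Gsx1 replicate 3 (adjusted p = 0.0722). It was also lost with the replicate block (adjusted p = 0.0579), with H2-Bl and Rpl29 in the model (0.97; adjusted p = 0.216) and with only libraries of low Xist (adjusted p = 0.0533).

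Of the other genes, Klf6 was higher than in sham at 3 days by 1.14 ± 0.20 with Gsx1 (edgeR adjusted p = 0.000118) and 1.47 ± 0.21 with Nkx6.1 (adjusted p = 2.2e-06). Jun was higher by 0.82 ± 0.14 (adjusted p = 8.5e-05) and 0.92 ± 0.14 (adjusted p = 8.86e-06). At 35 days the Jun call in SCI+Gsx1, 0.46 ± 0.14 (adjusted p = 0.0298), was lost without sham replicate 1 or 2 (adjusted p = 0.138 and 0.0649) or without SCI+Gsx1 replicate 3 or 4 (adjusted p = 0.0757 and 0.0597). The Jun call was also lost with the replicate block (adjusted p = 0.0869) and with H2-Bl and Rpl29 in the model (adjusted p = 0.131). Sox11 was at 28.9, 20.8 and 20.3 CPM in SCI+Gsx1 and at 25.1, 23.6 and 25.1 CPM in SCI+Nkx6.1 at 3 days, above all 3 sham libraries. Its changes were 0.68 ± 0.25 (adjusted p = 0.0307) and 0.76 ± 0.25 (adjusted p = 0.0111), and both calls were lost without sham replicate 1 (adjusted p = 0.109 and 0.0512). The Gsx1 call for Sox11 was also lost without sham replicate 3 (adjusted p = 0.0908) or SCI+Gsx1 replicate 1 (adjusted p = 0.175). Gadd45a stood at 34.1, 40.4 and 33.9 CPM in SCI+Nkx6.1 and was 1.09 ± 0.20 higher than in sham (adjusted p = 7.51e-05).

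Whether Gsx1 or Nkx6.1 altered these genes in injured cord was asked by comparing each with SCI+Ctrl at the same time, and with each other. None of the 10 genes passed the test in any of these 7 comparisons, by edgeR or by DESeq2. With Gsx1, 0 of 10 were called at 3 days, 14 days or 35 days, and 0% of all genes were called at each of these times. With Nkx6.1, 0 of 10 were called at 3 days (0.337% of all genes called) and 0 of 10 at 35 days (0% of all genes called). Between Gsx1 and Nkx6.1, 0 of 10 were called at 3 days (0.0797% of all genes) and 0 of 10 at 35 days (0% of all genes). The numbers of genes with an unadjusted p under 0.05 were 0, 0 and 3 for Gsx1 at 3, 14 and 35 days, 4 and 2 for Nkx6.1 at 3 and 35 days, and 2 and 0 between the factors at 3 and 35 days. Over all genes tested, the shares at that unadjusted p were 2.07%, 5.88% and 18.9% for Gsx1, 18.3% and 12.3% for Nkx6.1, and 14.2% and 2.41% between the factors.

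**Figure D4:**
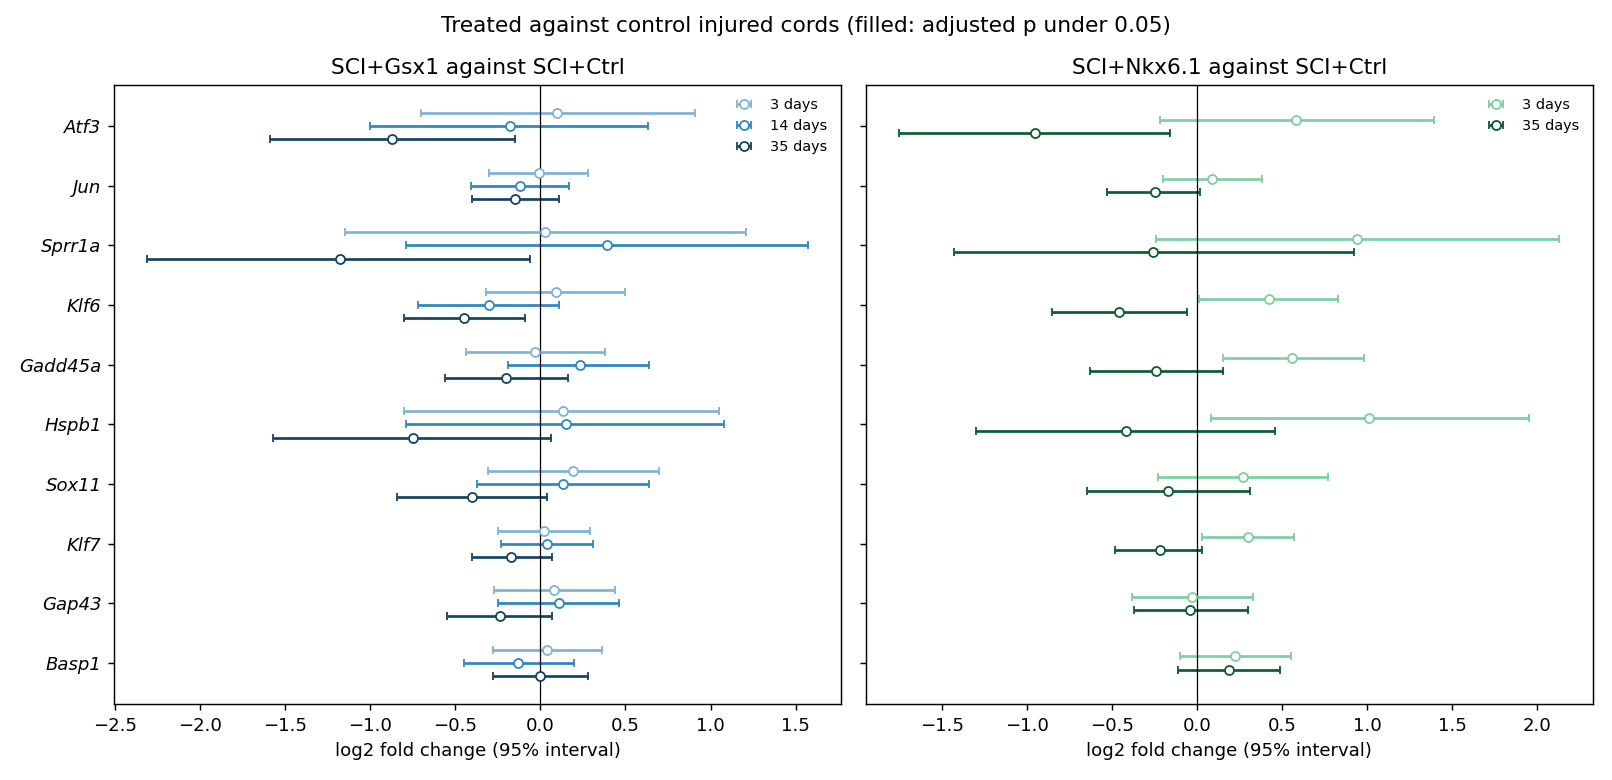
Log2 fold change of SCI+Gsx1 or SCI+Nkx6.1 over SCI+Ctrl for each of the 10 genes at each time, with 95% intervals; none passed the test after adjustment. Most Nkx6.1 values at 3 days lie above 0, and most values of both factors at 35 days lie below 0.

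At 3 days the Gsx1 differences from SCI+Ctrl were small, between -0.03 and 0.19 on the log2 scale. Their precision varied by gene: the 95% interval was -0.25 to 0.29 for Klf7 and -1.15 to 1.21 for Sprr1a, so differences of Sprr1a within that range were not detectable at this depth and spread. At 14 days the differences were between -0.30 and 0.39. At 35 days they were between -1.18 and 0, with a median of -0.32 against -0.03 over all genes tested. The 3 genes with an unadjusted p under 0.05 were Klf6 at -0.45 ± 0.17 (edgeR adjusted p = 0.213), Atf3 at -0.87 ± 0.35 (adjusted p = 0.221) and Sprr1a at -1.18 ± 0.55 (adjusted p = 0.25). Atf3 ranged from 10.9 to 12.9 CPM in SCI+Gsx1 and from 11.2 to 34.8 CPM in SCI+Ctrl, with overlap, and it passed the test without SCI+Ctrl replicate 2 (-1.09; adjusted p = 0.0473). With only libraries of low Xist the Atf3 difference was -0.06, that of Klf6 was -0.11 and that of Sprr1a was 0.06. Without SCI+Ctrl replicate 1 the Sprr1a difference was -0.22. The macrophage and microglia sum had a mean of 1370 CPM in SCI+Gsx1 and 2800 CPM in SCI+Ctrl at 35 days, and its part in these differences was not tested.

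With Nkx6.1 at 3 days, 9 of the 10 differences from SCI+Ctrl were above 0, between -0.03 and 1.01, with a median of 0.36. Gadd45a had the smallest p: its libraries stood at 34.1, 40.4 and 33.9 CPM against 33.9, 19.5 and 19.9 CPM, a log2 difference of 0.56 ± 0.20 (edgeR adjusted p = 0.151). SCI+Ctrl replicate 1 was level with the Nkx6.1 libraries, and without it the difference of Gadd45a passed the test (0.88; adjusted p = 0.0301), as it did with only libraries of low Xist (adjusted p = 0.0177). Hspb1 differed by 1.01 ± 0.45 (adjusted p = 0.239), Klf6 by 0.42 ± 0.20 (adjusted p = 0.265) and Klf7 by 0.30 ± 0.13 (adjusted p = 0.237). Klf7 was at 14.2, 13.7 and 13.5 CPM in SCI+Nkx6.1, above all other 3-day libraries, the highest of which was at 12.8 CPM. The macrophage and microglia sum was 5970 to 12300 CPM in SCI+Nkx6.1 and 4090 to 6950 CPM in SCI+Ctrl, the pan-neuronal sum had means of 5150 and 7000 CPM, and their part in these differences was not tested.

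At 35 days the Nkx6.1 differences were between -0.95 and 0.19. Atf3 was at -0.95 ± 0.39 (edgeR adjusted p = 0.362) and Klf6 at -0.46 ± 0.19 (adjusted p = 0.376). With only libraries of low Xist the Atf3 difference was 0.13 and that of Klf6 was -0.01, and without SCI+Nkx6.1 replicate 3 the Atf3 difference was -1.62 (adjusted p = 0.0514). Both factors were compared here with the same 4 SCI+Ctrl libraries, in which Atf3 ranged from 11.2 to 34.8 CPM, so the values for Gsx1 (-0.87) and Nkx6.1 share that control. Directly against each other at 3 days, Gadd45a was lower with Gsx1 than with Nkx6.1 by 0.60 ± 0.20 (adjusted p = 0.227) and Klf7 by 0.28 ± 0.13 (adjusted p = 0.337), each without overlap between the 3 libraries of a factor. At 35 days the smallest unadjusted p between the factors was 0.125.

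Among injured libraries of the same group, several of the genes, but not all, tended to be high where macrophage and microglia markers were high. In 7 of the 8 injured groups the library with the most Atf3 was also the one with the highest marker sum, and the same count was 7 for Jun, 6 for Klf6 and 6 for Hspb1. It was 5 for Sprr1a, 5 for Gadd45a and 5 for Sox11, but 3 for Basp1, 2 for Gap43 and 1 for Klf7. In 3-day SCI+Ctrl, for example, replicate 1 held 6950 CPM of the markers against 4090 and 4460 CPM, and it was the highest of the 3 in 9 of the 10 genes and the lowest in Klf7. The ratio of the 2 was not constant: Atf3 per 1000 CPM of the sum had means of 5.79 at 3 days, 11.1 at 14 days and 7.31 at 35 days in SCI+Ctrl, against 3.85 and 2.69 in sham at 3 and 35 days. These counts rest on 3 or 4 libraries per group and carry no test. They were not made for other marker sums or over all genes, so whether they are particular to these cells or genes is not known.

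Relatives of the 10 genes were read in the same fit. Of 25 other regeneration-associated genes tested, 14 rose and 3 fell in SCI+Ctrl at 3 days (median log2 fold change 0.81), and 10 rose and 3 fell at 35 days (median 0.41). These calls are 68.0% and 52.0% of the list, against 35.5% and 36.8% of all genes. The 4 with the smallest p were Socs3, a brake on gp130 cytokine signalling that limits axon regrowth (3.78 ± 0.39 at 3 days and 3.51 ± 0.41 at 35 days), and Plaur, the urokinase receptor (3.73 ± 0.42 and 3.75 ± 0.45). Cd44, a hyaluronan receptor, rose by 2.94 ± 0.32 and 2.31 ± 0.30, and Cebpd, an acute-phase transcription factor, by 3.19 ± 0.40 and 2.93 ± 0.40. The 3 that fell were the same at both times and were named after their values were seen: Tubb3 (-0.60 and -0.68), Stmn2 (-0.55 and -0.64) and L1cam (-0.63 and -0.59), which encode a neuronal tubulin, a tubulin-binding growth-cone protein and an axonal adhesion molecule. With either factor against SCI+Ctrl, edgeR called 0 of the 25 at any time. At an unadjusted p under 0.05 there were 2, 0 and 7 genes for Gsx1 at 3, 14 and 35 days. That is 8.0%, 0.0% and 28.0% of the list, against 2.07%, 5.88% and 18.9% of all genes. For Nkx6.1 there were 4 and 2 at 3 and 35 days, 16.0% and 8.0% of the list, against 18.3% and 12.3% of all genes.

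Of 18 AP-1 and ATF relatives of Jun and Atf3 tested, 6 rose and 1 fell at 3 days (median 0.44), and 11 rose and 1 fell at 35 days (median 0.75). These calls are 38.9% and 66.7% of the list, against 35.5% and 36.8% of all genes. Junb, an immediate-early partner in AP-1, rose by 1.73 ± 0.26 at 3 days and 1.64 ± 0.25 at 35 days, and Fosl2 (Fra-2) by 1.39 ± 0.24 and 1.44 ± 0.24. Maff, a small Maf protein, rose by 1.58 ± 0.34 and 2.32 ± 0.34, and Atf1 by 0.97 ± 0.20 and 1.05 ± 0.19. The 1 that fell at both times was Atf2, named after its value was seen.

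Among Krüppel-like factors, 13 relatives of Klf6 and Klf7 were tested, of which 3 rose at 3 days and 3 at 35 days and none fell (median 0.01 and 0.27). That is 23.1% of the list at each time, below the share of all genes called. Klf2, a factor of quiescent endothelium and immune cells, rose by 1.00 ± 0.32 at 3 days and 1.70 ± 0.32 at 35 days. Klf3 (0.46 ± 0.18) and Klf10 (0.94 ± 0.27) passed at 3 days only, at 0.37 and 0.32 at 35 days. Klf4, which restrains axon growth in neurons, and Klf5 passed at 35 days only, at 1.71 ± 0.28 and 2.99 ± 0.73, against 0.59 and 0.65 at 3 days. The difference between the 2 times was itself called in 0 of the 13 by edgeR. At an unadjusted p under 0.05 there were 2 (15.4%), against 9.58% of all genes.

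**Figure D5:**
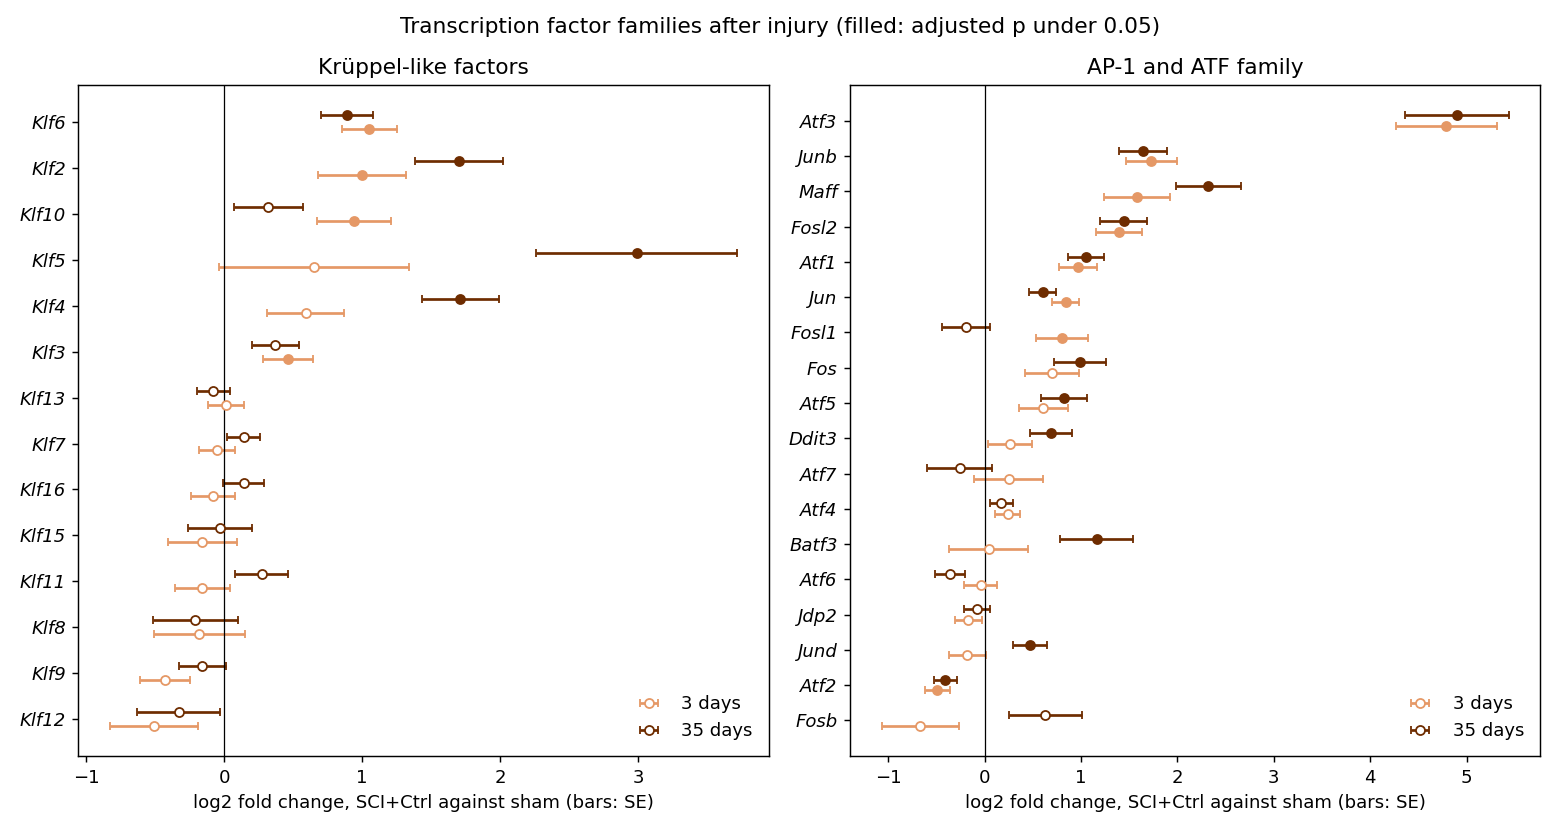
Log2 fold change of SCI+Ctrl over sham at 3 and 35 days for the Krüppel-like factors and for the AP-1 and ATF family, with bars of 1 SE and Klf6, Klf7, Jun and Atf3 included; Klf1, Batf and Batf2 are not drawn because sham was below 0.3 CPM. Atf3 lies above all its relatives, and Klf7 lies near 0 beside Klf6 near 1.

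Of the nearest relatives of Sox11, Gadd45a, Hspb1, Basp1 and Sprr1a, 12 were tested, and 9 rose at 3 days and 6 at 35 days, with none lower (median 0.75 and 0.82). Of all genes, 35.5% and 36.8% were called at these times. Marcks, which belongs with Gap43 and Basp1 to the same class of actin-regulating membrane proteins, rose by 0.79 ± 0.17 at 3 days and 0.94 ± 0.16 at 35 days. Gadd45g rose by 1.24 ± 0.25 and 1.05 ± 0.24, more than Gadd45a at 3 days, and Sox4, the close relative of Sox11, by 0.90 ± 0.32 and 1.32 ± 0.31. The small heat shock genes Hspb6 and Hspb8 rose by 1.40 ± 0.35 and 1.19 ± 0.33, and by 0.58 ± 0.21 and 1.01 ± 0.20. The 12 Sprr relatives of Sprr1a were too low to test, with 0 to 21 counts each over all 32 libraries, the most in Sprr1b.

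With the factors, no relative passed the test either: edgeR called 0 genes of the 4 lists in any comparison of SCI+Gsx1 or SCI+Nkx6.1 with SCI+Ctrl. With Gsx1 at 35 days, 8 of the 18 AP-1 and ATF relatives and 6 of the 12 nearest relatives had an unadjusted p under 0.05, with median log2 differences of -0.46 and -0.50, against 18.9% of all genes and a median of -0.03. With Nkx6.1 at 3 days, 3 of 18 and 3 of 12 did, with medians of 0.20 and 0.32, against 18.3% of all genes. The Krüppel-like factors had medians of -0.04 with Gsx1 at 35 days and 0.33 with Nkx6.1 at 3 days.

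The genes whose pattern over the 10 group means was nearest to each of the 10 were sought among 13878 genes, by the root mean square difference of centred log2 values. For Atf3 they were Fcgr2b (0.199), Mpeg1 (0.284) and Itgb2 (0.303), which encode an Fc receptor, a macrophage pore-forming protein and a leukocyte integrin. For Hspb1 they were Cmklr1 (0.118), Tmem37 and Arhgdib, and for Klf6 Snap23 (0.071), Vat1 and Lamp2. Sprr1a had no close match, with Atf3 itself the nearest (0.585), then Csf2rb and Acp5. Jun was nearest to Notch1 (0.0608), Tmem123 and Traf4, Sox11 to Traf4 (0.0872), Sh3bp4 and Tagap, and Gadd45a to Rp2h (0.0686) and Lpcat3. Gap43 was nearest to Tysnd1 (0.0348), Pigt and Mtmr14, Klf7 to Zdhhc7 (0.054), Zfp281 and Dolpp1, and Basp1 to Mir3072 (0.0511), Prmt1 and Qrich1. Genes that vary little resemble many others, so small distances in Gap43, Klf7 and Basp1 carry little information. The neighbours depended on the settings: with a pseudocount of 0.1 in place of 0.5, 0 of the 3 of Sprr1a and 1 of the 3 of Atf3 were the same, and with a pseudocount of 2, 0 of the 3 of Hspb1. With all 32 libraries in place of group means, 0 of the 3 were the same for Sox11, Gap43 and Klf7.

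In the GENCODE M21 annotation of GRCm38 all 10 are protein-coding. Atf3 lies on chromosome 1 from 191170296 to 191218039 (minus strand), Klf7 on chromosome 1 from 64029447 to 64122282 (minus), and Jun on chromosome 4 from 95049034 to 95052222 (minus). Sprr1a lies on chromosome 3 from 92483952 to 92485895 (minus), Hspb1 on chromosome 5 from 135887919 to 135889563 (plus), and Gadd45a on chromosome 6 from 67035096 to 67037457 (minus). Sox11 lies on chromosome 12 from 27334264 to 27342574 (minus), Klf6 on chromosome 13 from 5861482 to 5870394 (plus), Basp1 on chromosome 15 from 25363277 to 25413764 (minus) and Gap43 on chromosome 16 from 42248442 to 42340651 (minus).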

How the data were processed

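Gene counts of 32 libraries were deposited by the authors as 1 table of raw read counts per gene, not normalized. HISAT2, SAMtools, HTSeq and DESeq2 and the builds mm10 and GRCm38 are named, per the submitters' processing notes; no version, annotation or strand setting is given there, so reads of overlapping antisense genes cannot be separated. Here counts were filtered with edgeR 4.0.16 (filterByExpr, minimum count 10, minimum total 15), which left 16314 of 23420 genes, scaled by TMM and tested with the quasi-likelihood F test in R 4.3.3 with all 10 groups in 1 model (22 residual degrees of freedom), for 17 comparisons, with Benjamini-Hochberg adjustment over all genes and calls at 0.05. Summed count ratios have 95% intervals for counting error only. Scripts were tested on simulated data. DESeq2 1.42.0, other scalings, no filter, compared groups only, a replicate block, covariates, a sex term and left-out libraries were the alternatives.

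The members and gene lists were chosen with earlier results of these data known. The text names all 10 members, up to 4 genes of each list with the smallest p at 3 days and at 35 days, and the 3 nearest patterns per member (pseudocount 0.5, mean of at least 1 CPM), of which 1 is not reported here; other names are said to be chosen after their values were seen. Replicates of a group differed by more than sampling noise (lowest chi-square per degree of freedom 3.82). Depth was 10823632 to 19512107 counts.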

Additional observations from a re-analysis of the deposited data

Results flagged for a closer look

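In groups of 4 libraries, 3 of 20 tested sets of values held a library whose gap to its nearest neighbour exceeded the Dixon limit of 0.829 of the group's range, where chance gives about 1 in 20. In SCI+Ctrl at 35 days, replicate 1 stood alone in Sox11, at 29.3 CPM (gap 0.859 of the range), and in Basp1, at 270 CPM (0.858). The same library was also the highest of its group in Gap43 (219 CPM) and Sprr1a (20.7 CPM). In SCI+Gsx1 at 35 days, replicate 3 stood alone in Gap43, at 167 CPM (0.889).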

How the results depend on the processing

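Of 1050 values of the 10 genes under the alternatives, 992 kept their direction and their side of the threshold, 31 lost a call, 19 gained one and 8 turned direction. These covered SCI+Ctrl against sham in full. Other comparisons entered only for genes that were called or had an unadjusted p under 0.05 in the main fit. The alternatives reuse the same libraries, so the values are not independent. Of 286 counts of called genes, 277 stayed within 1.5 times. With only libraries of low Xist, 3 genes were called at 35 days in SCI+Ctrl against sham and 1 with Nkx6.1 against SCI+Ctrl at 3 days. In SCI+Gsx1 against sham at 35 days, 2 genes were called after adding H2-Bl and Rpl29 to the model and 2 with the replicate block, and 2 to 4 with 1 library left out. Replicate numbers showed no pairing in the median correlation of deviations (0.00382 for shared numbers and -0.00793 for different numbers). Medians over all groups cannot exclude pairing within some of them. The block changed no other count by over 1.5 times. With 1 library left out, 0 to 1 genes were called for Gsx1 against SCI+Ctrl at 35 days (1 without SCI+Ctrl replicate 2) and 0 to 1 for Nkx6.1 at 3 days (1 without SCI+Ctrl replicate 1). Values that turned direction were Klf7 at 3 days (-0.15 to 0.04 with 1 library left out, the latter without SCI+Ctrl replicate 1, 0.0 without the 2 mixed libraries, 0.02 at low Xist), Sox11 (-0.08), Gap43 (-0.1) and Klf7 (-0.04) at 35 days at low Xist, and, also at low Xist, Sprr1a with Gsx1 (0.06) and Atf3 with Nkx6.1 (0.13) against SCI+Ctrl at 35 days. The causes were not tested. DESeq2 called 6 genes at 3 days and 6 at 35 days in SCI+Ctrl against sham.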
